A study of Mus musculus with 2 samples.

Results

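Expression of 9 genes of myelin, the membrane sheath that oligodendrocytes wrap around axons, was followed through single-cell RNA libraries of mouse brain: Mbp, Mobp, Mag, Mog, Cnp, Mal, Opalin, Ugt8a and Klk6. They were taken by symbol from the gene lists of the libraries. All 9 were found in both libraries, among 26248 genes listed in the control-titled library and 26129 in the positive-titled library (29217 in all). The choice by symbol used no measured value, though it was made with earlier results of these data known.

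The brains were those of Balb/c mice in a model of breast cancer metastasis, and cells had been loaded on a Singleron GEXSCOPE microfluidic chip, a kit that tags each captured cell with a barcode and each RNA molecule with a unique molecular identifier (UMI). There was 1 library per group, control-titled and positive-titled. The labels contradict each other, since the treatment field gives 4T1 metastasis (4T1 is a triple-negative mouse mammary carcinoma line) to the control title and none to the positive title, so groups are named here by title and nothing is said of which mice bore metastases. Animal numbers and age were not in the labels used here.

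The control-titled library held 10417 barcodes with a median of 4230 UMIs, and the positive-titled library 10842 barcodes, whose median was 7383.5 UMIs. Of these barcodes 149 occurred in both libraries, 50 of them in control-titled and 12 in positive-titled oligodendrocyte-like cells. Without them the median log2 ratio of the 9 genes given below was -0.90, as with them, and the Klk6 and Opalin differences were -48.6 and -11.6 percentage points. Cell classes were named from marker genes alone, none of them among the 9, so each class name ends in "-like". The oligodendrocyte-like class held 3631 of 9886 kept cells (36.7%) in the control-titled library and 822 of 10295 (7.98%) in the positive-titled library. All intervals below are 95% intervals for counting error alone, and without replicate libraries no difference could be set against biological spread.

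Myelin is built in stages. Precursors commit to the lineage and pass through a short premyelinating stage in which Enpp6, a choline phosphodiesterase, is high. They then switch on the structural proteins and lipid enzymes of the sheath, which are among the most abundant messages of a mature oligodendrocyte. Mature cells in mouse brain and spinal cord range between states rich in Opalin and states rich in Klk6, and both states carry the same structural myelin genes.

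The class held the myelin message that its name calls for. The 12 reference genes that named it were all detected in both libraries. Among them Cldn11, a tight junction protein of myelin, was at 6418 CPM (the UMIs of a gene scaled to the summed UMIs of the class) in the control-titled and 7537 CPM in the positive-titled library. The 9 genes, which had no part in the naming or the clustering, took 4.17% of the class UMIs in the control-titled and 2.96% in the positive-titled library. In single cells of the class this share had a median of 4.04% (range 0.0941 to 8.48%) and 2.81% (0.601 to 6.62%). Over all kept cells the 9 genes made up 2.14% of the control-titled UMIs and 0.168% of the positive-titled UMIs. In the control-titled library the class came from cluster 3 (3504 cells) and from subclusters 2 (105 cells) and 0 (21 cells) of cluster 18, and in the positive-titled library from cluster 27 (821 cells), with 1 stray cell in each library. The clusters of the libraries were thus separate. Carcinoma markers, a sign of RNA from other cells, stood in the positive-titled class at 9.96% of their level in carcinoma-like cells, and all 10 of them were above 0 there, from Elf3 at 3.94 CPM to Krt18 at 317 CPM. Astrocyte markers stood in the control-titled class at 2.32% of their level in astrocyte-like cells. Endothelial markers stood in the positive-titled class at 37.8% of their own level, nearly all of it from Ly6c1 (9998.5 of 10024 CPM), while Cldn5 was at 7.42 CPM against 2051 CPM in endothelial-like cells. The part of RNA from other cells was tested only by subtracting a library profile, which gave a median log2 ratio of -0.68. This took off 7.86% of the class UMIs in the control-titled and 19.3% in the positive-titled library. By single marker list, 8 in each library, the percent ran from 4.44 to 13.4% and from 13.4 to 740%. The amount to take off was thus poorly fixed in the positive-titled library.

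**Figure D1:**
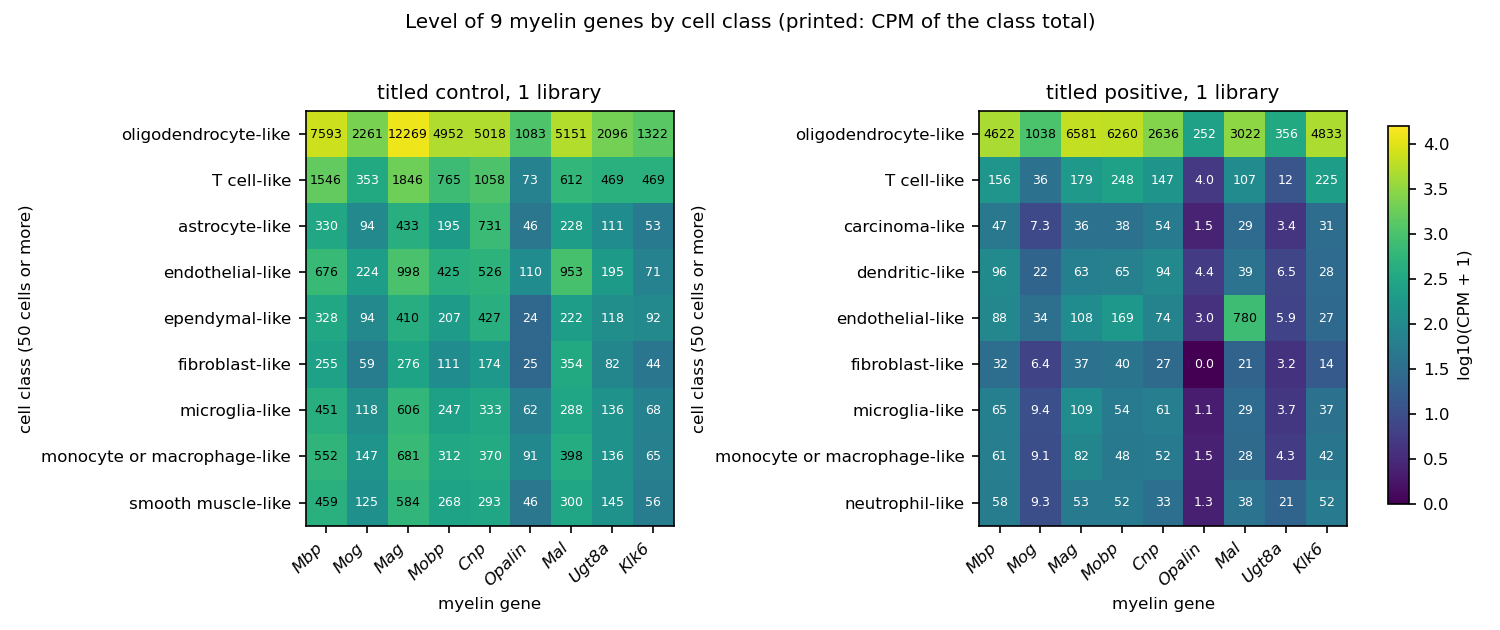
Level of each of the 9 genes (columns) in each marker-defined class of at least 50 cells (rows), by library. Colour is log10 of CPM plus 1 and the printed number is CPM. The oligodendrocyte-like row is the highest for every gene in both libraries, and in the 5 other classes shown for both libraries every gene is lower in the positive-titled library.

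The genes of compact myelin differed in direction between the libraries. Mbp, whose basic protein zips the cytoplasmic faces of the sheath together and which lies on chromosome 18, was at 7593 CPM in control-titled and 4622 CPM in positive-titled oligodendrocyte-like cells. Its log2 ratio of positive-titled over control-titled was -0.72 (-0.74 to -0.70). Mobp (chr9:120149707-120181484, plus strand, GRCm38), which encodes a smaller basic protein of the same compact layers, was at 4952 CPM and 6259.9 CPM, a log2 ratio of 0.34 (0.32 to 0.36). Mbp was thus lower and Mobp higher in the positive-titled cells, and both were found in nearly every cell: with each cell thinned to 2000 UMIs, 99.0% of positive-titled cells still held Mbp and 99.3% held Mobp. Mobp shares 2447 bases with Gm38642, a processed transcript on the same strand. Gm38642 had 1 UMI in control-titled and 0 in positive-titled oligodendrocyte-like cells. How reads of the shared bases were counted is not given.

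The adhesion proteins of the sheath were lower in the positive-titled cells. Mag (chr7:30899176-30914873, minus strand), an immunoglobulin-like receptor on the myelin layer that faces the axon, was at 12269 CPM and 6581 CPM, a log2 ratio of -0.90 (-0.92 to -0.88). Mog (chr17:37010743-37023398, minus strand), an immunoglobulin-like protein of the outermost layer, was at 2261 CPM and 1038 CPM, a log2 ratio of -1.12 (-1.17 to -1.08). After thinning, Mog was found in 97.5% of the control-titled and 80.4% of the positive-titled cells.

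Genes of the uncompacted and sorting membranes were also lower. Cnp (chr11:100574904-100591729, plus strand), an enzyme of the cytoplasmic channels of myelin, was at 5018 CPM and 2636 CPM (log2 ratio -0.93, -0.96 to -0.90). Mal (chr2:127633226-127656695, minus strand), a membrane protein of lipid rafts that helps to sort myelin cargo, was at 5151 CPM and 3022 CPM (log2 ratio -0.77, -0.80 to -0.74). Cnp shares 8912 bases with Dnajc7, a chaperone gene on the opposite strand. Since the strand setting of the counting is not given, reads of the pair cannot be told apart. Dnajc7 was counted at 120 CPM and 115 CPM in these cells.

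Opalin and Ugt8a were the members with the lowest ratios. Opalin (chr19:41061710-41077113, minus strand), a transmembrane glycoprotein restricted to oligodendrocytes, was at 1083 CPM (1070 to 1096) in control-titled and 252 CPM (237 to 267) in positive-titled cells. That is a log2 ratio of -2.10 (-2.19 to -2.02). Ugt8a (chr3:125865271-125938619, minus strand), the enzyme that makes galactosylceramide, the signature lipid of myelin, was at 2096 CPM (2078 to 2114) and 356 CPM (338 to 374), a log2 ratio of -2.56 (-2.63 to -2.48). Both were also found in fewer cells: after thinning, Opalin in 68.5% and 22.7% of cells, and Ugt8a in 95.8% and 41.4%.

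The direction was opposite for Klk6. This gene (chr7:43824499-43832030, plus strand), a secreted serine protease that cuts myelin and matrix proteins, was at 1322 CPM (1307 to 1336) in control-titled and 4833 CPM (4768 to 4899) in positive-titled cells. Its log2 ratio was 1.87 (1.85 to 1.90). After thinning it was found in 36.1% of the control-titled and 79.0% of the positive-titled cells.

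To set the sequence beside these patterns, the bases before the transcription start of 3 members are shown: Mobp and Klk6, both higher in the positive-titled class, and Opalin, which was lower and is set against Klk6 below. They are RefSeq upstream sequences (GRCm38.p6), 5′ to 3′ on the gene's strand and cut where the annotated gene begins. Capitals mark ACAAAG or its reverse complement CTTTGT, the core letters recognised by SOX factors such as Sox10, searched on both strands. They lie at chr9:120149492-120149706 (plus strand), chr19:41077114-41077363 (minus strand) and chr7:43824294-43824498 (plus strand).
Mobp: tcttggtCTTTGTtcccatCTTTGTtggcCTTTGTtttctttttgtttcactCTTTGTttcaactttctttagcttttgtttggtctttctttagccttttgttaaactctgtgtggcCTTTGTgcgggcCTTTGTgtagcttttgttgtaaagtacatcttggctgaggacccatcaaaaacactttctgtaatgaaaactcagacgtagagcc
Opalin: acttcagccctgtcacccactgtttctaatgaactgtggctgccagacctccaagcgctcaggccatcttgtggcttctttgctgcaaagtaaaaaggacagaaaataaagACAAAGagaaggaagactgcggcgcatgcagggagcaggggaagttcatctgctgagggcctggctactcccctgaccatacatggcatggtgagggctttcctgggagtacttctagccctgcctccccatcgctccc
Klk6: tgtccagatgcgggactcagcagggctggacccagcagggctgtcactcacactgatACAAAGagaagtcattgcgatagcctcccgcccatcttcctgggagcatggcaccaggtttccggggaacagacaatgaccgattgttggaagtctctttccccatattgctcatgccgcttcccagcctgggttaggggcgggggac
Of 32851 RefSeq upstream windows of 250 bases, 16.5% hold at least 1 such match, and 8 of the 9 members were matched to the table. Mobp has 6 matches, the highest number of any window (0.00304% of windows have as many). Opalin, Klk6 and Cnp have 1 each, and Mog, Mag, Mal and Ugt8a none. A match is a run of letters and not a shown binding site. Of the 4 members with a match, Mobp and Klk6 were higher and Opalin and Cnp lower in the positive-titled class, and the 4 without a match were all lower. A link between match and direction was not tested.

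Over the 9 genes, 7 were lower and 2 higher in the positive-titled class, with a median log2 ratio of -0.90. Of the 11721 genes compared, 7483 were lower. At least 2-fold lower were 3 members (Mog, Opalin and Ugt8a), beside 16.3% of those genes. At least 2-fold higher was 1 member (Klk6), beside 10.9% of those genes. The median log2 ratio of all of them was -0.24. Among them Ugt8a ranked at percentile 2.65, Opalin at 4.16, Mog at 13.5 and Klk6 at 93.6, while the other 5 lay between 17.96 and 78.1. Relative to the median of the 12 reference oligodendrocyte genes, which was -1.08, the median of the 9 genes became 0.18. Mbp (0.36), Mal (0.31), Mag (0.18) and Cnp (0.15) then changed sign, whereas Opalin (-1.03) and Ugt8a (-1.48) were still more than 2-fold lower and Klk6 was at 2.95. Mog was at -0.04 under that scaling, and it was also less than 2-fold lower with the library profile subtracted (-0.90) and relative to the median of all genes (-0.88).

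**Figure D2:**
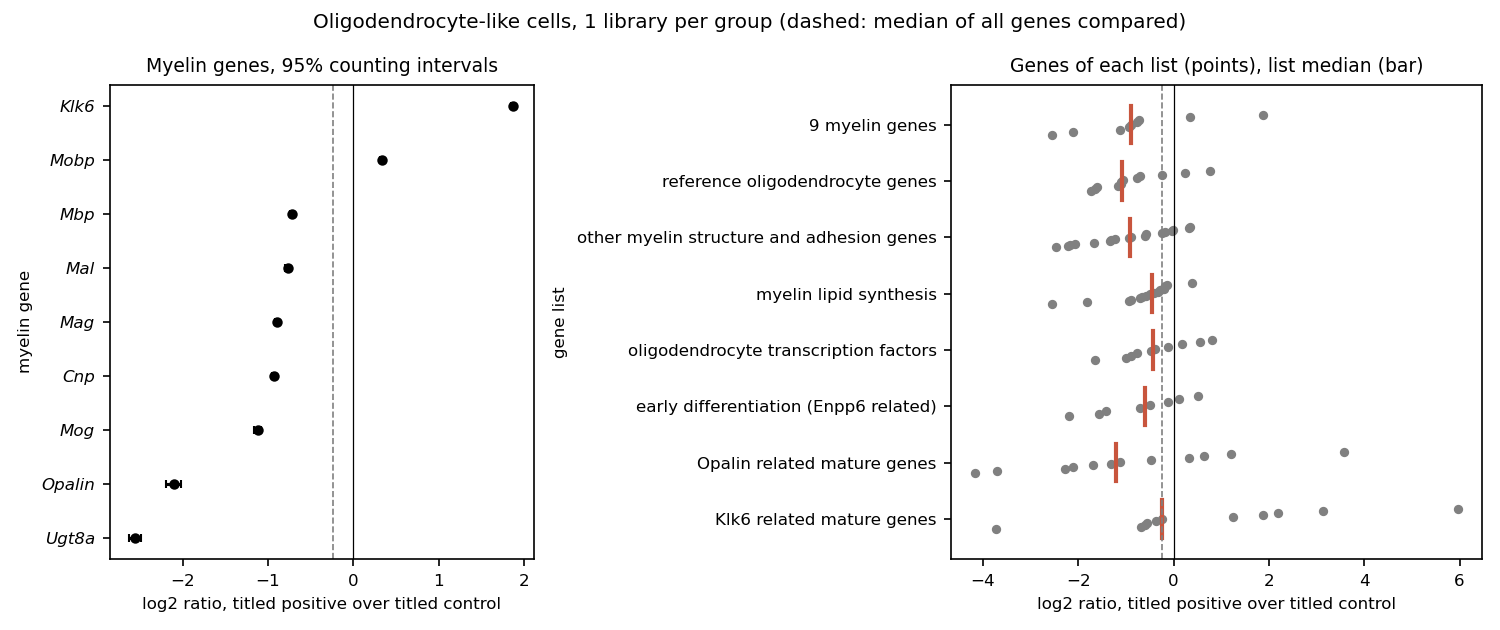
Log2 ratio of CPM in oligodendrocyte-like cells, positive-titled over control-titled, for each of the 9 genes with its counting interval (left) and for the genes of each list with the list median as a red bar (right). The dashed line is the median of all genes compared, -0.24. Ugt8a and Opalin lie below -2 and Klk6 near 1.87.

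Related gene lists give the setting. Of 12 reference genes 10 were lower and 2 higher, from Gpr37 (-1.74) to Cldn11 (0.23) and Nkx6-2 (0.77). These 12 also name the class. Of the 17 other myelin structure and adhesion genes that are no members, 16 were lower, with a median of -0.93. They ran from Pllp (-2.47), which encodes plasmolipin, and Cryab (-2.22), a small heat shock protein, to Anln (0.33). Myelin lipid synthesis without Ugt8a had 14 of 15 genes lower and a median of -0.41. Elovl7, a fatty acid elongase, was lowest at -1.81, and Sqle, a cholesterol synthesis enzyme, highest at 0.38. Ugt8a thus stood below all other genes of the lipid list.

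Oligodendrocyte transcription factors had a median of -0.43, with 7 of 10 lower, a share close to that of all genes (7483 of 11721), and 2 of the 10 intervals included 0. Olig1 (-1.65) and Olig2 (-0.997), which specify the lineage, were the lowest, and Zfp536 (0.55) and Zfp488 (0.81, -0.04 to 1.55) the highest. Sox10, which drives myelin genes together with Myrf, was at 207 CPM and 159 CPM (-0.38), and Myrf at 139 CPM and 157 CPM (0.18).

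The 3 stage lists each held higher and lower genes, and their counts are to be read beside the 7483 of 11721 genes that were lower. Among 8 early genes compared, 6 were lower, with a median of -0.59, and 2 of the 8 intervals included 0. Enpp6 was at 321 CPM and 120.3 CPM (log2 ratio -1.42, -1.55 to -1.29), Bcas1 at -1.57 and Gpr17, a receptor of premyelinating cells, at -2.19 on 3 positive-titled UMIs (-4.71 to -0.81). Itpr2 was at 0.51 and Fyn at 0.12 (-0.19 to 0.41). Of 11 Opalin related genes without Opalin itself, 7 were lower, with a median of -1.12. They ran from Serpinb1a (-4.16) and Jph4 (-3.70) to Il33 (1.21) and Apod (3.57). Apod, a lipid carrier, was at 10941 CPM and 130287 CPM, the latter a large part of the class UMIs. CPM are shares of a total that includes Apod, and ratios without it were not computed.

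Klk6 related genes were divided as well. Of 10 besides Klk6 itself, 6 were lower and 4 higher, with a median of -0.31. S100b, the calcium-binding gene most like Klk6 across control-titled cells, was the lowest at -3.72, and Cyp2j12 was at -0.68. Klk8, a neighbouring kallikrein protease, was at 1.38 CPM and 87.2 CPM (5.96, 5.47 to 6.53), and the immediate early gene Fos at 3.13. Klk6 was thus higher and S100b lower in the positive-titled class.

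Within each library Opalin was found in a smaller share of the cells with Klk6 than of those without, by a wide margin in the control-titled and a narrower one in the positive-titled library. Cells were thinned to 2000 UMIs and split by whether they held a UMI of each gene. In the control-titled class 822 cells held only Klk6, 2001 only Opalin, 488 both and 320 neither. Opalin was thus found in 37.3% (34.6 to 39.9%) of the cells with Klk6 and in 86.2% (84.7 to 87.6%) of those without, a difference of -48.96 percentage points (-51.9 to -45.9). In the positive-titled class 517 cells held only Klk6, 55 only Opalin, 132 both and 118 neither. There Opalin was found in 20.3% (17.3 to 23.6%) of the cells with Klk6 and 31.8% (24.9 to 39.3%) of those without, a difference of -11.5 points (-19.3 to -4.20). Both genes were together in 13.4% and 16.1% of cells, where the product of their shares is 24.7% and 17.96%. Without thinning the differences were -32.0 and -12.1 points. Depth was not equal over the sets before thinning: in the control-titled library the median was 8678.5 UMIs in Klk6-only cells and 5644 UMIs in Opalin-only cells. A UMI is not proof that the cell makes the gene. After the same thinning Klk6 was found in 10.8% of control-titled and 6.32% of positive-titled microglia-like cells, and Opalin in 8.73% and 0.316%, at median depths of 3243 and 4882 UMIs before thinning against 6221 and 4756 UMIs in the oligodendrocyte-like class.

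Of the other members, Mal and Ugt8a differed most between these cell sets in the control-titled library. Per 2000 UMIs, Mal had a mean of 6.57 UMIs in Klk6-only, 9.58 in cells with both and 12.5 in Opalin-only cells, a log2 ratio of Klk6-only over Opalin-only of -0.93 (-0.97 to -0.89). Ugt8a had 5.29, 4.26 and 3.46 UMIs, a log2 ratio of 0.61 (0.56 to 0.67). Mbp, Mag and Mobp lay at 0.21, 0.21 and 0.17, and Mog and Cnp at -0.19 and -0.23. Mal thus went with Opalin and Ugt8a with Klk6, and the other 5 members differed less between the sets. The median over 7844 genes was 0.01.

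Of the 7 other members 6 were lower in the Klk6-only cells of the positive-titled library. Mal had 4.89 UMIs in Klk6-only and 11.1 in Opalin-only cells, a log2 ratio of -1.19 (-1.32 to -1.06). Cnp was at -0.96 (-1.10 to -0.82), Ugt8a at -0.80 (-1.18 to -0.39), Mobp at -0.54, Mog at -0.41 and Mag at -0.28. Mbp was at 0.01 (-0.12 to 0.15). The median over all 3041 genes compared was -0.16, so most genes were lower in these cells as well, and Mag lay near that median. The count of 6 members is to be read beside this. Ugt8a had the opposite sign to the control-titled library. Apod took a mean of 313 of 2000 UMIs in these Klk6-only cells and 35.6 in Opalin-only cells, and its share in the lower values of the other genes was not tested. The Opalin-only set holds 55 cells here.

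Enpp6, the early gene, was higher in Klk6-only than in Opalin-only cells of both libraries. In the control-titled library it had a mean of 1.19 UMIs in Klk6-only, 0.701 in both, 0.575 in neither and 0.263 in Opalin-only cells (log2 ratio 2.18, 2.02 to 2.33). In the positive-titled library it had 156 UMIs in the 517 Klk6-only cells and 0 in the 55 Opalin-only cells, at least 5.53-fold higher against a floor of 3 counts over that set. It had 2 UMIs in the 132 cells with both (mean 0.0152) and 18 in the 118 with neither (mean 0.153). Cells with both genes thus held less Enpp6 there than cells with neither, unlike in the control-titled library. The rest of the early list was divided in the control-titled library. Sirt2 was higher in Klk6-only cells (0.11, 0.03 to 0.20), Tcf7l2 (-1.63, -3.10 to -0.58, 7 and 56 UMIs) and Bcas1 (-0.42, -0.58 to -0.26) were lower, and the intervals of Itpr2 (-1.05 to 0.36) and Fyn (-0.83 to 0.30) included 0.

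**Figure D3:**
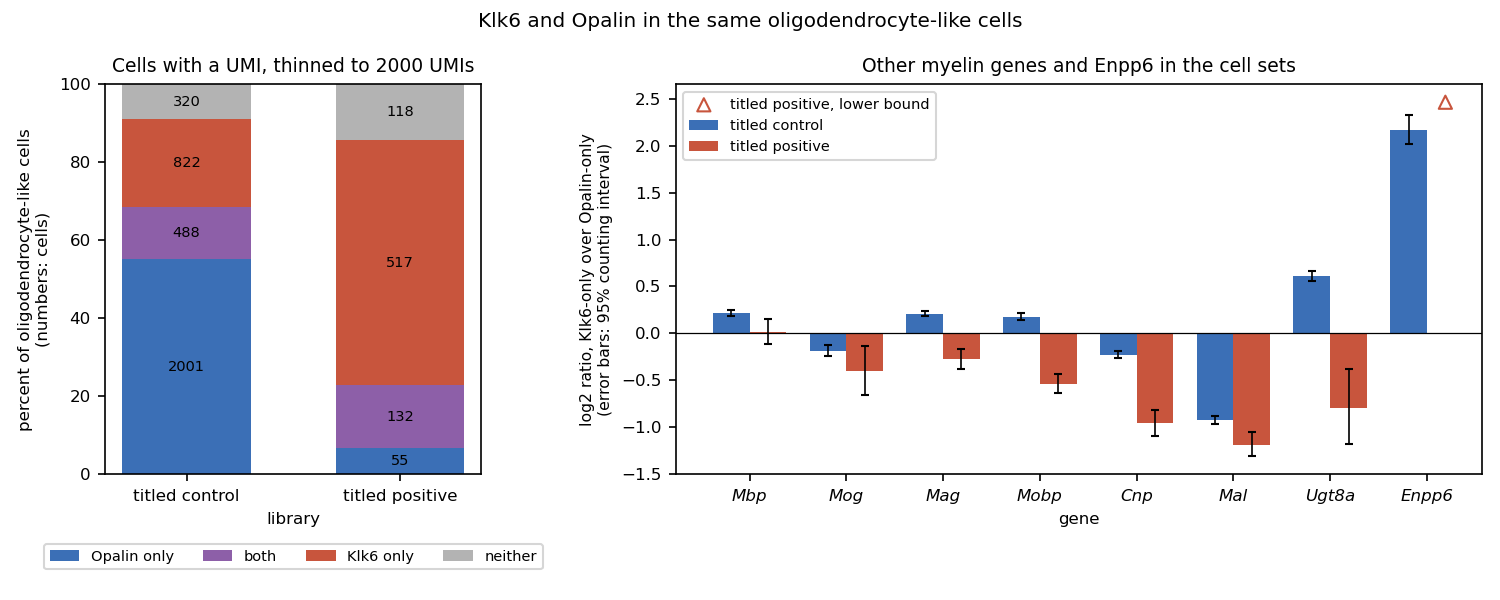
Left, percent of oligodendrocyte-like cells holding a UMI of Opalin only, both, Klk6 only or neither after thinning to 2000 UMIs per cell, with cell numbers. Right, log2 ratio of Klk6-only over Opalin-only cells for the other 7 members and Enpp6 in each library, with counting intervals, and a triangle for a lower bound. Mal lies below 0 and Enpp6 above 0 in both libraries.

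Across single cells the genes most like Opalin and Klk6 were listed by correlation of log(1 + UMIs per 2000) over 3631 control-titled cells, among 4854 genes. The cells share 1 library, so the values describe it only. For Opalin they were Ptgds (r = 0.60), which encodes a prostaglandin synthase, Mal (0.46), Bin1 (0.45), Qdpr (0.45) and Sept4 (0.44). Over 822 positive-titled cells the same genes had r of 0.32, 0.24, 0.19, 0.17 and 0.24. For Klk6 they were S100b (0.78), Anxa5 (0.62), Hopx (0.55), Selenop (0.51) and Mgst3 (0.50), with positive-titled r of 0.0066, 0.07, 0.07, 0.12 and 0.0039. Both sets of 5 genes were picked for the highest r in the control-titled library, so a lower r in the other library can follow from the choice alone. Ranked by r in the positive-titled library, the Opalin set lay from 5 (Ptgds) to 45 (Qdpr). By r with Klk6 its set lay from 47 (Selenop) to 1560 (Mgst3) in that library. S100b was also sparse there, with a mean of 6.26 UMIs in control-titled and 0.263 UMIs in positive-titled Klk6-only cells.

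Among the 36 pairs of members, r ran from -0.57 (Opalin with Klk6) to 0.46 (Opalin with Mal) in the control-titled class, with a median of 0.10. In the positive-titled class it ran from -0.35 (Mal with Klk6) to 0.43 (Mbp with Mobp), with a median of 0.20. Pairs below 0 numbered 12 and 7. No such values over pairs of other genes are given here, so the difference between the libraries is not read as a trait of the members.

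Cells with the highest Enpp6 were few. Subcluster 1 of cluster 18, 14 cells of the control-titled library and 0 of the other, was led by Gpr17 (2142 CPM), Enpp6 (2311 CPM) and other early genes such as Bmp4 (639 CPM). It scored highest for precursor markers, but none of these was among its 10 leading genes and Pdgfra had 7 UMIs, so it is given no cell type name here. Cnp (4716 CPM), Ugt8a (1653 CPM) and Mbp (5355 CPM) stood there at 94.0%, 78.9% and 70.5% of their levels in the oligodendrocyte-like class. Mag was at 43.3% and Mog at 36.2%. Opalin (14.7%, 17 UMIs), Mal (3.28%), Mobp (3.03%) and Klk6 (2.13%, 3 UMIs) were lowest. The 14 cells thus held Cnp, Ugt8a and Mbp at 70.5% or more of that level and little Mal, Mobp, Opalin or Klk6. A set of 21 control-titled cells, subcluster 0 of the same cluster, joined high Klk6 (4623 CPM) with Enpp6 at 629 CPM and Opalin at 77.5 CPM, but also held astrocyte markers at 14.5% of the astrocyte-like level.

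Myelin message was also counted outside oligodendrocyte-like cells, and there it followed the oligodendrocyte profile for most genes. RNA set free from broken cells reaches droplets or wells of other cells, and 1 such source keeps its genes in 1 ratio in every class. For each member the level in another class was therefore taken as a percent of its oligodendrocyte-like level in the same library and set beside the same percent for the 12 reference genes. In the control-titled library the members' median percent by class ran from 3.33% (fibroblast-like) to 15.6% (T cell-like) and that of the reference genes from 3.01% to 17.9%. In the positive-titled library the members ran from 0.635% (fibroblast-like) to 3.45% (T cell-like) and the reference genes from 0.649% (carcinoma-like) to 3.63% (T cell-like). Of the 9 genes' UMIs in the whole library, 6.97% lay outside the class in the control-titled and 16.9% in the positive-titled library.

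The level outside was lower in the positive-titled library. The median cell of the other classes held 0.128 to 0.194% of its UMIs in the 9 genes in the control-titled library and 0.0136 to 0.0728% in the positive-titled library. That is 3.17 to 4.79% and 0.484 to 2.59% of the median oligodendrocyte-like cell. Beside it, the oligodendrocyte-like class held 47.8% of the kept UMIs in the control-titled and 4.70% in the positive-titled library. Mbp, the usual mark of myelin, had a UMI in 66.8% of control-titled microglia-like cells (50.4% after thinning) and 27.3% (12.5%) of positive-titled ones. It had one in 35.6% (8.84%) of the carcinoma-like cells, which are of epithelial origin. Relative to the median percent of the reference genes, Mbp stood at 1.10 times in control-titled microglia-like cells. In the positive-titled library it stood at 1.64 times in microglia-like and 1.58 times in carcinoma-like cells. Whether any of these classes makes Mbp itself was not tested.

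A few cells held much of it. In control-titled T cell-like cells the 9 genes stood at 17.2% of the oligodendrocyte-like level as a sum, but 1 of the 67 cells held 22.8% of those UMIs and the median cell stood at 4.22%. In control-titled endothelial-like cells the top 6 of 592 cells held 23.6%.

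**Figure D4:**
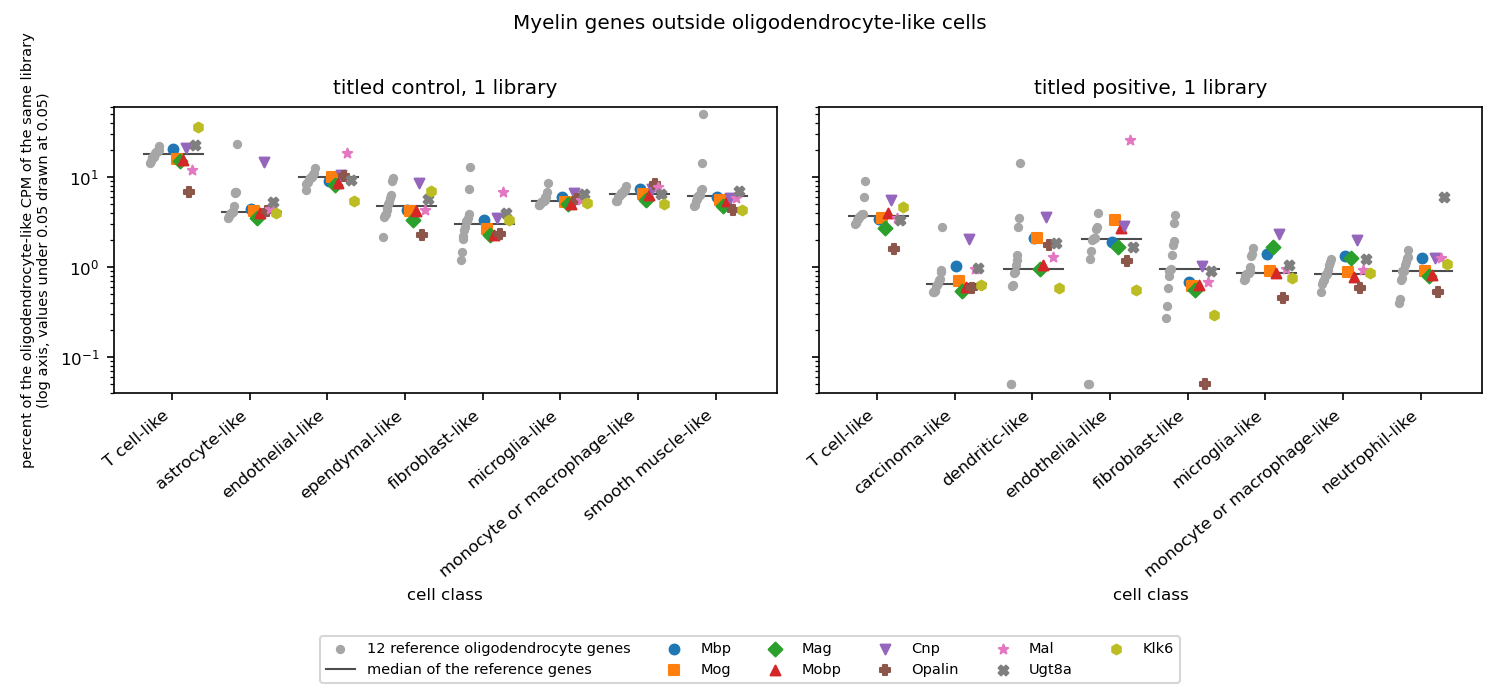
Percent of the oligodendrocyte-like CPM of the same library that each member (coloured) and each of the 12 reference genes (grey, with their median as a line) reached in every other class of at least 50 cells, on a log axis. Most coloured points lie among the grey ones. Cnp in control-titled astrocyte-like cells, Mal in endothelial-like cells and Ugt8a in positive-titled neutrophil-like cells lie above the median line of their class.

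Of 72 pairs of member and class in each library, 68 in the control-titled and 60 in the positive-titled library were within 2-fold of the reference median. In the control-titled library 2 pairs were more than 2 times above it. Cnp in astrocyte-like cells was at 14.6% (14.2 to 14.97%) against 4.11%, 3.54 times, where 96.6% of all genes compared were above 2 times. Mal in fibroblast-like cells was at 6.88% (5.92 to 7.95%) against 3.01%, 2.29 times, where 91.6% of genes were. No member was above 2 times in the other 6 control-titled classes, where 76.4% of genes were in T cell-like, 91.9% in endothelial-like, 94.3% in ependymal-like, 92.7% in microglia-like, 90.5% in monocyte or macrophage-like and 90.2% in smooth muscle-like cells. Members above 2 times were far fewer than genes at large, a background that includes each gene the class makes itself. This follows from the choice of members as genes of myelin and is not a result about them.

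Above 2 times in the positive-titled library were 8 pairs. Mal in endothelial-like cells was at 25.8% (23.6 to 28.2%) against 2.03%, 12.7 times (95.8% of genes above). Ugt8a in neutrophil-like cells was at 5.95% (4.05 to 8.43%) against 0.901%, 6.60 times on 32 UMIs (95.6% of genes). Cnp was above in carcinoma-like cells (2.05% against 0.649%; 95.9% of genes), dendritic-like cells (3.56% against 0.957%; 93.5%), microglia-like cells (2.33% against 0.852%; 96.0%) and monocyte or macrophage-like cells (1.98% against 0.827%; 96.2%). None was above in T cell-like (94.4% of genes) or fibroblast-like cells (96.3%). Mbp (44 UMIs) and Mog (10 UMIs) were at 2.08% and 2.10% in dendritic-like cells. Cnp and Mal, 2 genes known from other tissues too, thus made up 7 of the 10 pairs of both libraries.

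These pairs were also above 2 times without the cells richest in myelin message. Without the 1% of cells with the most member UMIs in each class, Cnp in control-titled astrocyte-like cells stood at 3.65 times the reference, Mal in positive-titled endothelial-like cells at 20.98 times and Ugt8a in positive-titled neutrophil-like cells at 8.75 times. Mal in control-titled endothelial-like cells then came to 2.06 times, from 1.88 times, and Cnp in ependymal-like cells to 2.18 times, from 1.80 times, so that 4 control-titled pairs were above 2 times in place of 2. Cnp had a UMI in 78.6% of the 1901 control-titled astrocyte-like cells, at 731 CPM, 6.87-fold below the oligodendrocyte-like level. Mbp was at 330 CPM there, 23.0-fold below it. Mal had a UMI in 84.6% of the 91 positive-titled endothelial-like cells, at 780 CPM, and in 82.9% of the 592 control-titled ones, at 953 CPM. Dnajc7, the gene that overlaps Cnp, was at 117 CPM in control-titled astrocyte-like cells and 109.8 CPM in positive-titled carcinoma-like cells, where Cnp was at 54.0 CPM; how many Dnajc7 reads were counted as Cnp was not tested. Carcinoma markers stood at 38.3% of their own level in positive-titled neutrophil-like cells and at 12.4% in the endothelial-like ones, and their part in the Ugt8a and Mal values was not tested. The reference genes had exceptions of their own: Gpr37 reached 23.1% in control-titled astrocyte-like cells, Ppp1r14a 50.1% in control-titled smooth muscle-like cells and Cldn11 12.9% in control-titled fibroblast-like cells.

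Neither Klk6 nor Opalin was above 2 times the reference median in any of the classes compared, though both were well below it in some. Klk6 in control-titled T cell-like cells was at 35.5%, 1.98 times the reference, but 1 of the 67 cells held 46.1% of its 141 UMIs, and without the cell richest in member UMIs it was at 24.97%, 1.64 times. Opalin there was at 6.75%, 0.378 times. In positive-titled fibroblast-like cells Opalin had 0 UMIs, which allows a level of up to 4.77 CPM. Klk6 was at 0.272 times the reference in positive-titled endothelial-like and 0.314 times in fibroblast-like cells. By makeup, Klk6 gave 3.17% of the 9 genes' UMIs in control-titled oligodendrocyte-like cells and 2.94% in microglia-like, 2.37% in monocyte or macrophage-like and 1.70% in endothelial-like cells of that library. In the positive-titled library it gave 16.3%, and 9.99% in microglia-like, 12.8% in monocyte or macrophage-like, 2.07% (1.23 to 3.26%) in endothelial-like and 12.5% in carcinoma-like cells. In T cell-like cells it gave 6.52% and 20.2%, and in fibroblast-like cells 3.19% (2.03 to 4.75%) and 7.96% (3.71 to 14.6%). The larger part taken by Klk6 was thus also seen in microglia-like, monocyte or macrophage-like and T cell-like cells. In endothelial-like cells the Klk6 part differed little. Mal gave 22.8% of the UMIs there in the control-titled and 60.5% in the positive-titled library, which lowers the part of every other gene. Carcinoma-like cells were too few in the control-titled library to compare. Mag gave 25.1% in positive-titled monocyte or macrophage-like cells and 29.5% in the microglia-like ones, against 22.2% in oligodendrocyte-like cells. Cnp gave 32.9% of the 9 genes' UMIs in control-titled astrocyte-like cells.

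**Figure D5:**
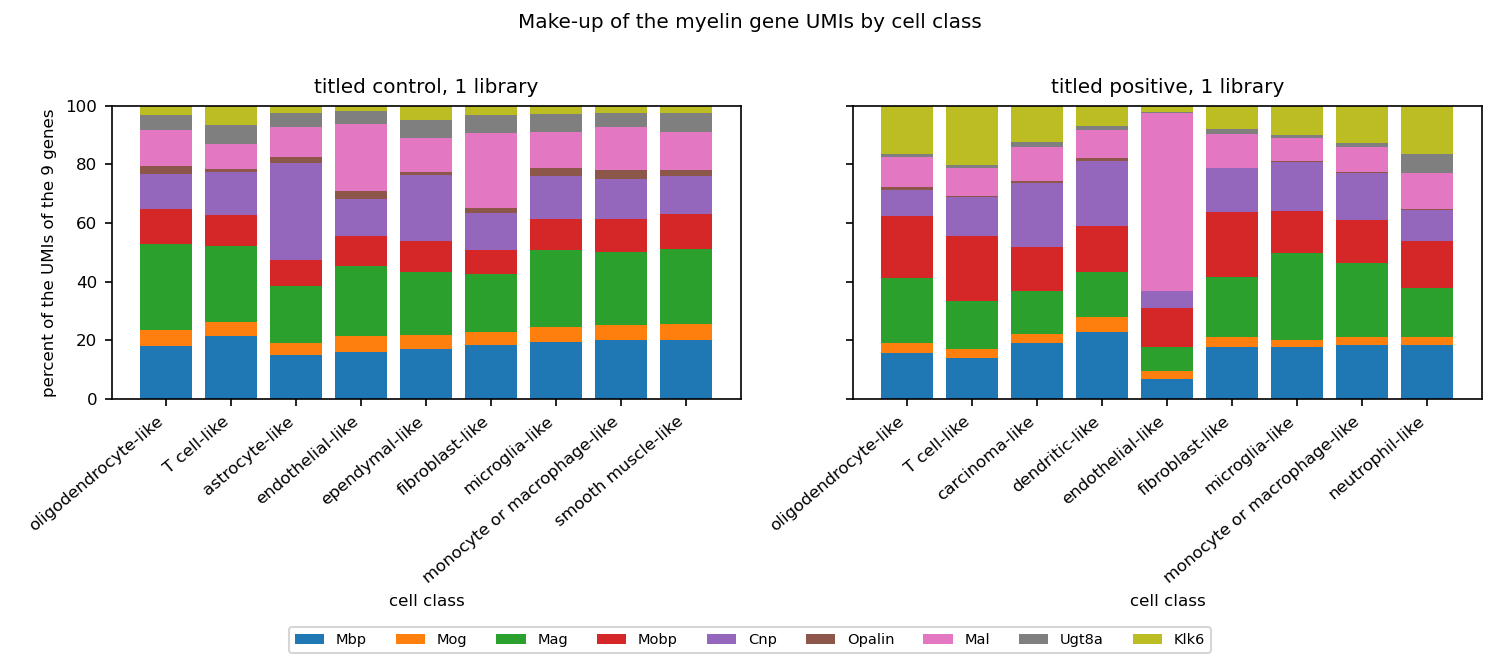
Make-up of the UMIs of the 9 genes in each class of at least 50 cells, in percent, by library. The Klk6 part of the oligodendrocyte-like bar is 3.17% in the control-titled and 16.3% in the positive-titled library. Cnp in control-titled astrocyte-like cells and Mal in positive-titled endothelial-like cells depart from it.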

How the data were processed

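Polyadenylated RNA of single brain cells was counted as UMIs in 2 libraries, 1 per group. The deposited values are whole-number counts per gene and cell, unnormalized. Cell Ranger and the GRCm38 build are named per the submitters' processing notes; for its version, the cell calling, the annotation release and the strand setting, none is named in these sources. Identifiers were matched to GENCODE M21 for 29170 of 29217.

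Cells with under 200 genes or over 20% mitochondrial UMIs were left out (11 and 5). Scrublet scores called only 2 control-titled cells (0.0192%) at their own threshold, and 366 (3.38%) positive-titled ones, so the 5% of cells with the highest scores in each library were removed as doublets (520 and 542). Cells were clustered in scanpy 1.11.5 (2000 variable genes, 30 components, 15 neighbours, Leiden resolution 1, igraph 0.11.9) without the 9 genes and the listed genes. A cluster was named from at least 3 detected markers; the score limits were set after the clusters were seen. No annotation by the authors was used. Clusters of mixed markers were kept out of every class: 500 cells (5.06%) of the control-titled and 26 (0.25%) of the positive-titled library.

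UMIs were summed by class and library and given as CPM with exact Poisson intervals (scipy 1.17.1). Shares have exact Clopper-Pearson intervals, and log2 ratios (pseudocount 0.5) conditional exact binomial intervals, over genes with at least 50 UMIs. All are 95% intervals for counting error only. With 1 library per group no test was made. The calculations were tested on simulated data.

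The members and lists were chosen with earlier results of these data known. The text names all 9 members, the lowest and highest genes of each list (up to 2 each), Enpp6, and the 5 genes most correlated with Opalin and with Klk6; Tcf7l2, Sirt2, Pdgfra, Sox10, Myrf and the genes named as exceptions were added after their values were seen. Some items are not reported here. Alternatives covered clustering, naming, doublets, scaling, thinning, free RNA and left-out cells.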

Additional observations from a re-analysis of the deposited data

How the results depend on the processing

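Across 14 alternatives the median log2 ratio of the 9 genes in oligodendrocyte-like cells ran from -1.07 to 0.18 (-0.90 as reported). It was -0.88 with each cell named by its own markers, -1.07 without doublet removal, -0.85 as a mean of per-cell CPM, -0.87 after thinning, -0.68 with the library profile subtracted and -0.66 relative to the median of all genes. Relative to the median of the 12 reference genes, a scaling added after the data were seen, it was 0.18, and Mbp (0.36), Mag (0.18), Cnp (0.15) and Mal (0.31) changed sign, by construction of that scaling. Opalin (-2.27 to -1.03) and Ugt8a (-2.71 to -1.48) were at least 2-fold lower in 14 of 14 alternatives, Mog in 11, and Klk6 (1.72 to 2.95) and Mobp (0.17 to 1.42) were higher in all 14. Of these alternatives, a limit of 10 UMIs and a pseudocount of 0 could hardly move such well counted genes. The scaling to the median of all genes, the largest cluster alone and the removal of shared barcodes were also not planned in advance. Members at least 2-fold lower numbered 5 without doublet removal (3 as reported) and 2, without Mog, with the library profile subtracted and under both scalings to a median. The median percent of the oligodendrocyte-like level in other control-titled classes was 4.52 with each cell named by its own markers and 4.46 without the top 1% of cells (5.67 as reported). The Klk6 and Opalin difference of the control-titled library was -32.0 points without thinning. The causes of the other shifts were not tested.

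No paired analysis was possible because each group has 1 library. No value was set against biological spread, and no replicate was left out in turn. Low counts limit the small classes: in positive-titled fibroblast-like cells Opalin had 0 UMIs and Ugt8a 2, and in control-titled fibroblast-like cells Opalin had 13.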
